A study of Danio rerio with 4 samples.

Results

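Head muscle progenitor regulators are the transcription factors and cofactors that act in pharyngeal mesoderm before the muscles of the jaw and gill arches form. The genes described here were chosen by name: tcf21, isl1, msc, lhx2a, lhx2b, eya1 and eya4. All 7 were matched to rows among the 25873 Ensembl gene IDs of the table. The table of gene names calls lhx2b by the human-style name LHX2.

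RNA sequencing was done on 4 libraries from Tg(nkx2.5:ZsYellow) zebrafish embryos of a laboratory strain at 14 to 16 somites. Both groups carry the transgene, in which nkx2.5 regulatory sequence drives ZsYellow, a yellow fluorescent protein. The ZsYellow-positive cells (2 libraries) were labelled as cardiopharyngeal progenitors together with cardiomyocytes, so head muscle progenitors were not sorted apart from heart cells. The ZsYellow-negative cells (2 libraries) came from the same embryos and mix many tissues. The labels do not say how many embryos were pooled or whether replicates came from separate batches of embryos, so p-values measure only the spread between these libraries, which may be technical.

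Library totals ran from 31996733 to 40133331 counts. As a check of the sort, nkx2.5 had 13259 and 20181 counts in positive libraries and 207 and 195 in negative libraries. Of the cardiomyocyte markers myl7, cmlc1 and tnnc1a, 3 of 3 were called higher, at a median of 5.78 on the log2 scale. Of 5 endothelial markers 4 were called higher and 0 lower, with a summed level of 471.1 to 644.5 transcripts per 1000000 (TPM) in positive and 362.5 to 436.1 TPM in negative libraries. Within these sums etsrp, which was not called, had 242.5 and 304.3 TPM in positive, against 324.4 and 283.0 TPM in negative libraries. The tek call, from 817 and 327 counts in positive libraries, was lost without negative replicate 1 (2.38) or negative replicate 2 (2.16). The part of heart and endothelial cells in the values below was not tested.

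In vertebrate embryos the muscles of the jaw and face arise from pharyngeal mesoderm rather than from somites. Tcf21 and Msc are basic helix-loop-helix (bHLH) factors that, from work in mouse, act together at the start of jaw muscle formation upstream of the myogenic factors Myf5 and Myod. Isl1 and Lhx2 are LIM-homeodomain factors, and Isl1 marks the shared progenitors of heart and head muscle in mouse. Eya proteins do not bind DNA themselves; they are coactivators with phosphatase activity that homeodomain factors of the sine oculis class recruit to their targets. Several of these genes also act elsewhere: Eya1 in sensory placodes and somites, Isl1 in neurons, and Lhx2 in the eye and forebrain.

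The question put to the data was how the regulators differ between the nkx2.5 reporter cells and the rest of the embryo. They did not change together. The genes tcf21 and isl1 were about 3-fold higher in positive cells, lhx2a and lhx2b were lower, and eya1 and eya4 did not pass the test. The count of msc was too low for a test. Counts were compared with edgeR's quasi-likelihood test. Called here means an adjusted p under 0.05 after Benjamini-Hochberg adjustment over all 19084 genes tested. In a fit with 1 library left out, spread is estimated from the other group alone. A call lost in such a fit need not mean that the value depends on the library left out. Of the 7 genes, 6 passed the filter on low counts, 2 were called higher and 2 lower. Among all genes tested, 9.02% were called higher and 8.07% lower. The gene lhx2a passed the filter through its negative libraries, so the tally of calls is a description only. The number called lower was 1 without negative replicate 1. In bulk samples, fewer cells of a type and less RNA per cell cannot be told apart.

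**Figure D1:**
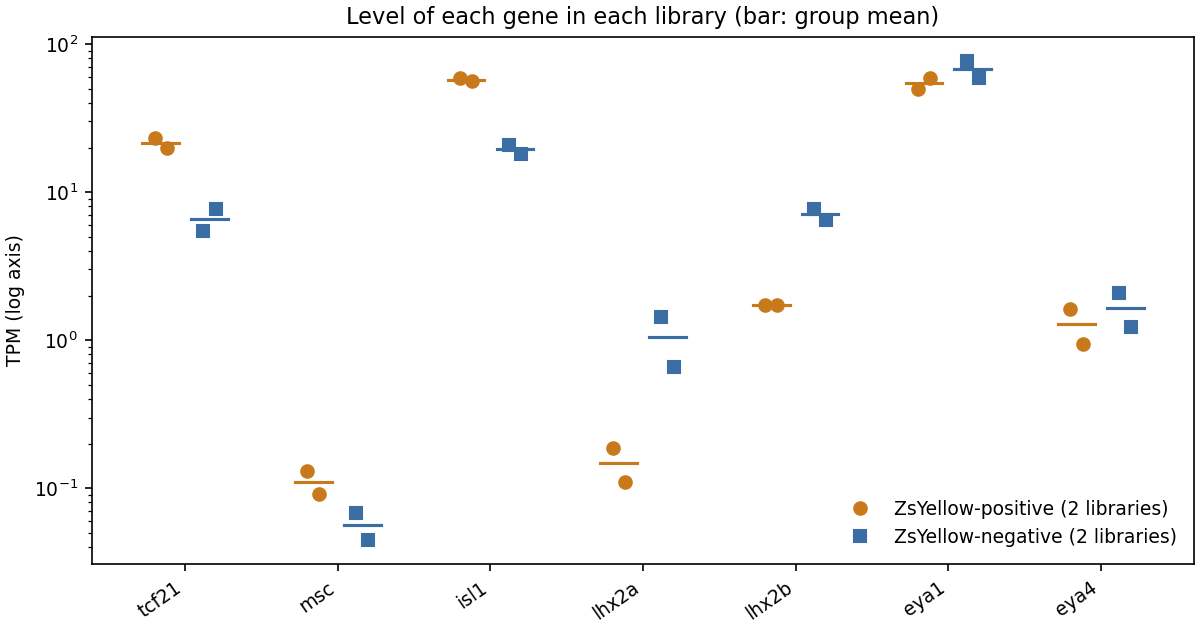
Level of each of the 7 genes in TPM (log axis), with orange circles for ZsYellow-positive and blue squares for ZsYellow-negative libraries (2 each) and bars at group means. Positive libraries lie above negative ones for tcf21, isl1 and msc and below them for lhx2a and lhx2b.

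Between genes, levels can be compared per length, as TPM, which is the scale of this paragraph. In positive cells the highest were isl1 at 57.5 ± 2.10 and eya1 at 54.5 ± 6.67 TPM (SD, n = 2 for each group here and below), whose ranges overlapped. The level of tcf21 was 21.4 ± 2.40 TPM. The remaining genes were scarce: lhx2b had 1.72 ± 0.0085, eya4 had 1.29 ± 0.486, lhx2a had 0.149 ± 0.0553 and msc had 0.110 ± 0.0273 TPM, with overlapping ranges for lhx2a and msc. In negative cells the order was different. There eya1 led with 68.2 ± 12.7 TPM, before isl1 at 19.5 ± 2.00 TPM. The negative levels of lhx2b (7.10 ± 0.852 TPM) and tcf21 (6.57 ± 1.52 TPM) overlapped. The levels of eya4 (1.66 ± 0.616 TPM) and lhx2a (1.05 ± 0.550 TPM) overlapped, and msc was lowest at 0.0565 ± 0.0167 TPM. By TPM, tcf21 stood at the 74.9th percentile of the genes tested in positive cells and at the 54.1st in negative cells. For lhx2b the percentiles were 31.1 in positive cells and 55.7 in negative cells.

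The bHLH gene tcf21 (ENSDARG00000036869) had the largest increase of the 7 genes, with an interval that includes the value of isl1. It had 548 and 542 counts in positive libraries, against 134 and 199 counts in negative libraries. The positive libraries were the high ones and the groups did not overlap, as was so, in one direction or the other, for 58.3% of all genes tested. Scaled to counts per 1000000 (CPM), the level of tcf21 was 15.7 ± 2.69 CPM in positive cells, against 4.80 ± 1.53 CPM in negative cells. Its log2 fold change, positive over negative, was 1.71 with a standard error (SE) of 0.281 and a 95% interval of 1.07 to 2.34 (edgeR adjusted p 0.00327). That is a 3.27-fold difference.

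The other bHLH gene, msc (ENSDARG00000110016), known as MyoR in mouse, was barely detected. It had 11 and 9 counts in positive libraries, against 6 and 4 counts in negative libraries. The positive values were the higher ones, but a difference is not detectable at this depth: fitted without the low-count filter, the log2 fold change was 1.02 (edgeR adjusted p 0.556). The 2 partners named together in jaw muscle formation in mouse stood far apart in level here, with 21.4 TPM for tcf21 and 0.110 TPM for msc in positive cells.

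Among bHLH genes related to tcf21, 8 of 10 passed the filter on low counts, 1 was called higher and 3 lower, and the median of the tested ones was -0.58 on the log2 scale (-0.37 without positive replicate 2). The gene called higher was hand2, a heart and pharyngeal arch factor, at 1.77 (SE 0.197, edgeR adjusted p 0.000415). The genes called lower were tcf15, a factor of the paraxial mesoderm (-2.70, edgeR adjusted p 4.62e-05), twist2 (-2.36, edgeR adjusted p 0.000644) and ptf1a (-2.33, edgeR adjusted p 0.0403). The ptf1a call was lost when positive replicate 1 (-2.23), positive replicate 2 (-2.41) or negative replicate 2 (-1.53) was left out. It was also lost with the DESeq2 Wald test (-2.34, DESeq2 adjusted p 0.0794). The counts of ptf1a were 5 and 7 in positive libraries, against 18 and 42 in negative libraries. It passed the filter on low counts through the negative libraries alone. E proteins, the general dimer partners of tissue-specific bHLH factors, showed no call among 4 tested genes, with a median of -0.10 that was 0.15 without negative replicate 1 and -0.31 without negative replicate 2. With DESeq2 and with limma 0 of the 4 were called, and 0 had an unadjusted edgeR p under 0.05.

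Of 9036 named genes with a mean of at least 10 CPM, the one whose profile over the 4 libraries was most like that of tcf21 was hand2. Likeness was the Euclidean distance between log2 CPM profiles centred on their own means, and it was 0.247 for hand2, against a median of 1.80 over those genes. Next were ppp1r14aa at 0.307 and ecscr, which encodes an endothelial surface protein, at 0.308. With 4 libraries in 2 groups, any gene of similar fold change and replicate spread lies close.

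The LIM-homeodomain gene isl1 (ENSDARG00000004023) had 3392 and 3728 counts in positive libraries, against 1235 and 1131 counts in negative libraries. The groups did not overlap, and the replicates lay close together. Scaled, the level was 101.9 ± 9.93 CPM in positive cells, against 33.9 ± 0.596 CPM in negative cells. The log2 fold change was 1.59 (SE 0.172, 95% interval 1.198 to 1.98, edgeR adjusted p 0.000363), a 3.01-fold difference. Neuron markers, from cells that also use isl1, went the other way: 5 of 6 were called lower and 0 higher, and their summed level was 57.9 to 62.9 TPM in positive and 173.1 to 207.8 TPM in negative libraries. Of the neuron markers called lower, mnx1 had 200 and 411 counts in negative libraries. Its call was lost without negative replicate 2 (-1.23). The part of neurons in the isl1 level of negative cells was not tested.

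The lhx2 genes were lower in positive cells. For lhx2b (named LHX2, ENSDARG00000031222) there were 163 and 189 counts in positive libraries, against 751 and 660 counts in negative libraries. This was 5.02 ± 0.300 CPM in positive cells, against 20.2 ± 0.943 CPM in negative cells. The log2 fold change was -2.01 (SE 0.213, 95% interval -2.49 to -1.52, edgeR adjusted p 0.000331). The positive libraries were the low ones, without overlap. Expressed as a fold, lhx2b was 4.02-fold lower in positive cells.

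The paralog lhx2a (ENSDARG00000037964) was scarce, with 6 and 4 counts in positive libraries, against 47 and 23 counts in negative libraries. Again the positive libraries were the low ones. The log2 fold change, -2.76, had the widest error of the 4 called genes (SE 0.637, 95% interval -4.20 to -1.32, edgeR adjusted p 0.0173). With negative replicate 1 left out it was -2.21 and lost its call (edgeR adjusted p 0.189), and limma on log2(TPM + 1) gave -0.81, a scale on which low genes change less. The log2 ratio of lhx2b to lhx2a, on TMM-scaled counts with a prior count of 2, was 4.41 and 4.94 in positive libraries and 3.94 and 4.73 in negative libraries. These overlap (difference 0.34, exact two-sided permutation p 0.667, where 2 against 2 libraries cannot go below 0.333). With 6 and 4 counts of lhx2a in positive libraries, the prior count of 2 makes this difference smaller. The fitted log2 fold changes lay further apart, at -2.01 for lhx2b and -2.76 for lhx2a. The 95% interval of lhx2a includes the lhx2b value.

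Eye and forebrain markers, from tissue where lhx2b is known to act, moved in the same direction as the lhx2 genes. Of 8 such markers 7 were called lower and 0 higher, with a median log2 fold change of -1.77. Their summed level was 40.5 to 48.0 TPM in positive and 124.2 to 132.9 TPM in negative libraries, and none of the 8 had a count of 0 in a whole group. The direction was not particular to this list. Medians were also below 0 for neuron (-1.81), neural crest (-1.83), somite (-2.86) and placode and otic (-1.46) markers. They were above 0 for cardiomyocyte (5.78), endothelial (2.03) and pharyngeal endoderm (0.67) markers. The emx3 call was lost with a replicate block (-0.66, edgeR adjusted p 0.0562) and with limma on both TPM scales (-0.62 and -0.67). It was also lost without positive replicate 2 (-0.59), negative replicate 1 (-0.65) or negative replicate 2 (-0.66). PAX6 ENSDARG00000103379 lost its call without negative replicate 2 (-1.52). The part of eye and forebrain cells in the lhx2 result was not tested. The 3 genes most like lhx2a in profile were MYL1 (ENSDARG00000014196, distance 0.0772), CYP26B1 (ENSDARG00000077121, 0.285) and MYMK (ENSDARG00000103988, 0.295). They encode a skeletal muscle myosin light chain, an enzyme that breaks down retinoic acid and a myoblast fusion protein. Their direction follows from that choice, and the lhx2a profile they were matched to rests on 4 to 47 counts a library.

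**Figure D2:**
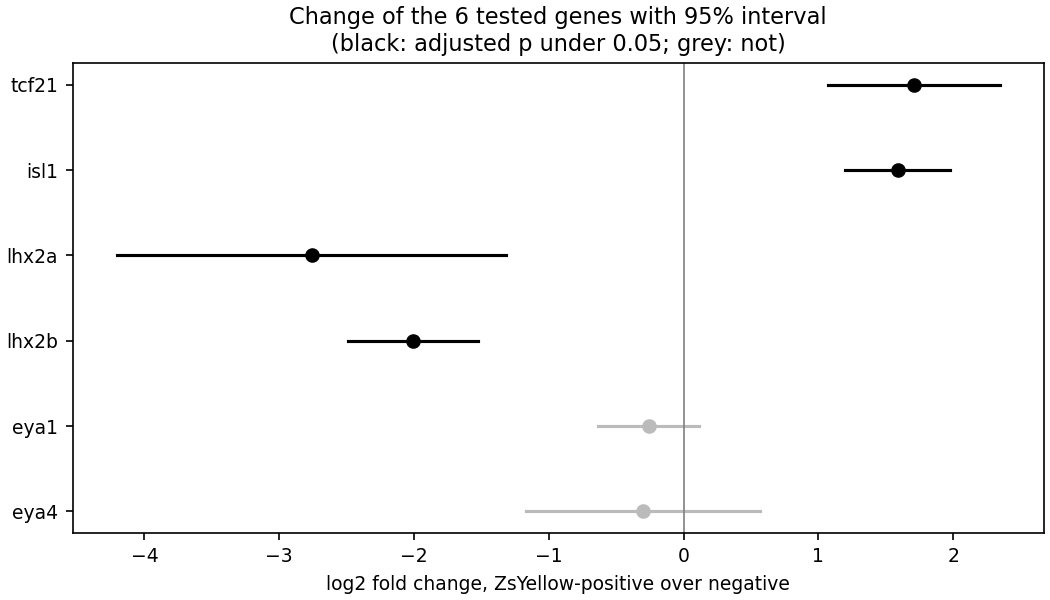
Log2 fold change (positive over negative) of the 6 tested genes with its 95% interval; black marks an adjusted p under 0.05 and grey the rest. Intervals of tcf21 and isl1 lie above 0, those of lhx2a and lhx2b lie below 0, and those of eya1 and eya4 include 0.

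The rest of the LIM-homeodomain genes showed where isl1 stood in its family. Of 17 other genes, 12 passed the filter on low counts, 9 were called lower and 1 higher, with a median log2 fold change of -1.86, against -0.0087 over all genes tested. Of those called lower, lhx4 lost its call without negative replicate 1 (-1.68) and without negative replicate 2 (-1.80). The same was so for lmx1a (-1.48 and -1.52), and lhx9 lost its call without negative replicate 2 (-1.28). The one called higher was an isl2 gene (ISL2, ENSDARG00000053499). It had 1895 and 1892 counts in positive libraries, against 483 and 360 counts in negative libraries, and changed by 2.18 on the log2 scale (SE 0.210, edgeR adjusted p 0.000204). Its paralog (ISL2, ENSDARG00000003971) had 404 and 445 counts in positive libraries, against 509 and 514 in negative libraries, and was not called (-0.27, edgeR adjusted p 0.425). The lowest of the family was isl1b, the paralog of isl1, with 25 and 11 counts in positive libraries, against 143 and 190 counts in negative libraries (log2 fold change -3.17, SE 0.482, edgeR adjusted p 0.00215). Next were an lmx1b gene (LMX1B, ENSDARG00000104815) and lhx1b, neural genes, both at -2.43 (edgeR adjusted p 0.00208 and 0.00228).

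Summed over the 20 LIM-homeodomain genes, the level was 106 to 118 TPM in positive libraries and 82.3 to 98.5 TPM in negative libraries. The share of isl1 in that sum was 50.1% to 52.7% in positive and 21.2% to 22.0% in negative libraries. Together isl1 and the ISL2 pair made up 88.2% to 89.9% of it in positive and 42.4% to 43.5% in negative libraries. Within that, ISL2 ENSDARG00000053499 took 28.4% to 29.7% in positive and 7.42% to 8.80% in negative libraries, while ISL2 ENSDARG00000003971 took 8.42% to 8.89% in positive and 12.3% to 14.1% in negative libraries. The share of lhx2b was 1.45% to 1.62% in positive and 7.81% to 7.90% in negative libraries.

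LIM-homeodomain proteins work through Ldb adaptors and can be held back by Lmo proteins. Of 9 such genes, 1 was called higher and 3 lower, with a median of 0.30 (without positive replicate 1 it was 0.53, and without positive replicate 2 it was 0.021). The gene called higher was an ldb2 gene (LDB2, ENSDARG00000019579), at 1.201 (SE 0.166, edgeR adjusted p 0.00133). The genes called lower were lmo3 (-1.81, edgeR adjusted p 0.000966), LMO4 (ENSDARG00000054749, -0.996, edgeR adjusted p 0.00361) and lmo2 (-0.86, edgeR adjusted p 0.0158), and the lmo2 call was lost without negative replicate 1 (-0.94) and without negative replicate 2 (-0.77). An ldb1 gene (LDB1, ENSDARG00000103158) stood just outside the threshold, at 0.74 with an edgeR adjusted p of 0.0503, and 3 of the 9 were called higher without positive replicate 1 and 2 without positive replicate 2.

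The coactivator gene eya1 (ENSDARG00000014259) was abundant in both groups. It had 3795 and 5184 counts in positive libraries, against 5655 and 4953 counts in negative libraries. Scaled, this was 126.9 ± 7.12 CPM in positive cells, against 151.8 ± 7.45 CPM in negative cells, without overlap, while in TPM the groups overlapped (49.8 and 59.3 in positive, against 77.2 and 59.2 in negative libraries). The log2 fold change was -0.26 (SE 0.166, 95% interval -0.63 to 0.12, edgeR adjusted p 0.344). As a fold, the interval ran from 0.644 to 1.09, which leaves out the 3.27-fold and 3.01-fold values of tcf21 and isl1.

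The gene eya4 (ENSDARG00000012397) had 119 and 78 counts in positive libraries, against 154 and 96 counts in negative libraries. The groups overlapped, and the log2 fold change was -0.30 (SE 0.384, 95% interval -1.17 to 0.57, edgeR adjusted p 0.661). Its sign turned without positive replicate 2 (0.10) and without negative replicate 1 (0.02). The log2 ratio of eya4 to eya1 was -4.97 and -6.01 in positive libraries and -5.18 and -5.66 in negative libraries, which overlap (difference -0.07, exact two-sided permutation p 1). Over the 2 paralog ratios compared, each Benjamini-Hochberg adjusted permutation p was 1. With 2 against 2 libraries the permutation p cannot go below 0.333, so this test could not have detected a difference.

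**Figure D3:**
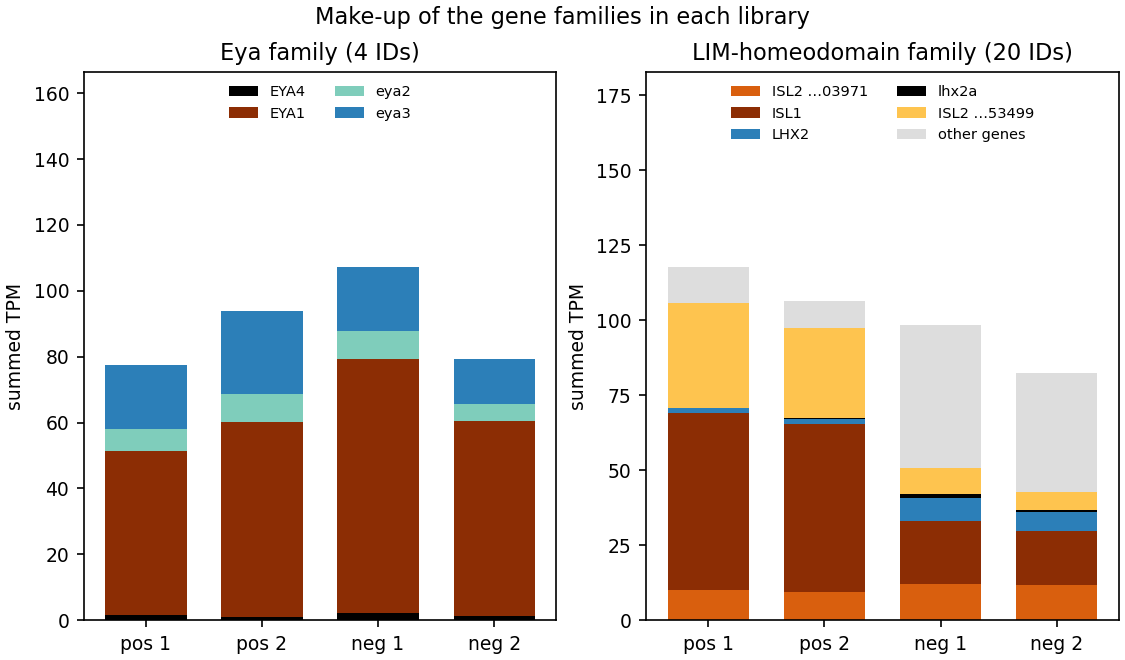
Summed TPM of the eya and LIM-homeodomain families in each library (positive replicates 1 and 2, then negative replicates 1 and 2), divided by gene; same-named IDs are told apart by their last digits. ISL1 and ISL2 ENSDARG00000053499 take larger shares of their family in positive libraries, ISL2 ENSDARG00000003971 a smaller one, and EYA1 is the largest part of its family in all 4.

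Of the summed TPM of the 4 eya genes, eya1 took 63.1% to 64.4% in positive and 71.9% to 74.6% in negative libraries. Among the other Six, Eya and Dach genes, 14 of 15 passed the filter on low counts, 2 were called higher and 6 lower, with a median log2 fold change of -0.42. Called higher were dachc, a Dach corepressor gene of the same network (1.98, SE 0.198, edgeR adjusted p 0.000246), and six2a, matched to the name SIX2 (0.61, SE 0.174, edgeR adjusted p 0.0419). The six2a call was lost under 7 of 12 alternatives, among them leaving out positive replicate 1 (0.53), negative replicate 1 (0.64) or negative replicate 2 (0.60) and the fit with a replicate block (0.61, edgeR adjusted p 0.0667). Called lower were both SIX3 IDs, forebrain and eye genes (-1.93 and -1.82), both SIX6 IDs, eye genes (-2.04 and -1.72), six2b (-1.50) and six4a (-0.999), with edgeR adjusted p from 0.000246 to 0.0235. Of these, six2b lost its call without negative replicate 1 (-1.41) and without negative replicate 2 (-1.58), and six4a did so without negative replicate 2 (-0.99). The other Eya genes, eya2 (0.16) and eya3 (0.45), were not called.

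Some of the regulators are neighbours in the genome, per the RefSeq gene table of assembly GRCz12tu. There tcf21 stands next to eya4, and msc next to eya1. The pairs differed in their values: tcf21 was higher in positive cells at 1.71 and its neighbour eya4 was at -0.30 and not called, while eya1 was measured at 3795 counts or more in each library and its neighbour msc at 11 or fewer.

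Beside the group, 12 other regulators of pharyngeal mesoderm and head muscle were examined. Of these, 6 were called higher and 2 lower, with a median of 1.03 (0.53 without positive replicate 1). The highest was nkx2.7, a relative of nkx2.5 (3.88, SE 0.204, edgeR adjusted p 1.7e-05), followed by MEF2C ENSDARG00000009418, a muscle and heart factor (3.20), tbx1, a regulator of pharyngeal development (2.85), and MEF2C ENSDARG00000029764 (2.55). Also among the 6 was hand2 (1.77), which is counted with the bHLH genes related to tcf21 as well. Beside these, tcf21 was at 1.71 and isl1 at 1.59. Called lower were foxf2a (-2.29) and pitx3, a lens and pituitary gene (-2.19). FOXC1 (ENSDARG00000091481), called higher at 1.99, had 4472 and 1523 counts in positive libraries, against 815 and 780 counts in negative libraries. With positive replicate 1 left out its log2 fold change was 0.79, and with positive replicate 2 left out it was 2.65. The call was lost without negative replicate 1 (1.98) and without negative replicate 2 (2.02). There the value hardly moved, and the spread came from the positive libraries alone. It was also lost with the DESeq2 Wald test (DESeq2 adjusted p 0.0718) and with limma on log2(TPM + 1) (1.62, limma adjusted p 0.0556). Without positive replicate 1, 4 of the 12 were called lower.

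The myogenic factors, which execute the muscle programme, were all 4 called lower in positive cells, with a median of -2.71. Both the tally and the median include myf6, whose limits are given below. The gene myf5 had 684 and 723 counts in positive libraries, against 8030 and 7865 counts in negative libraries (log2 fold change -3.50, SE 0.191, edgeR adjusted p 1.77e-05). The log2 fold changes of myod1 and myog were -2.54 and -1.88. That of myf6 was -2.87, from 3 and 1 counts in positive libraries, against 16 and 15 counts in negative libraries, through which alone it passed the filter on low counts. Its call was lost when any single library was left out (values from -3.93 to -2.16) and without the filter (edgeR adjusted p 0.059). The DESeq2 Wald test called 3 of the 4 factors, and whether it gave myf6 an adjusted p is not shown here. Somite markers, 3 of which are these same factors, were all 6 called lower, and their summed level was 77.5 to 98.1 TPM in positive and 707.7 to 765.8 TPM in negative libraries. The part of somite cells in the levels of myogenic factors and eya1 in negative cells was not tested.

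**Figure D4:**
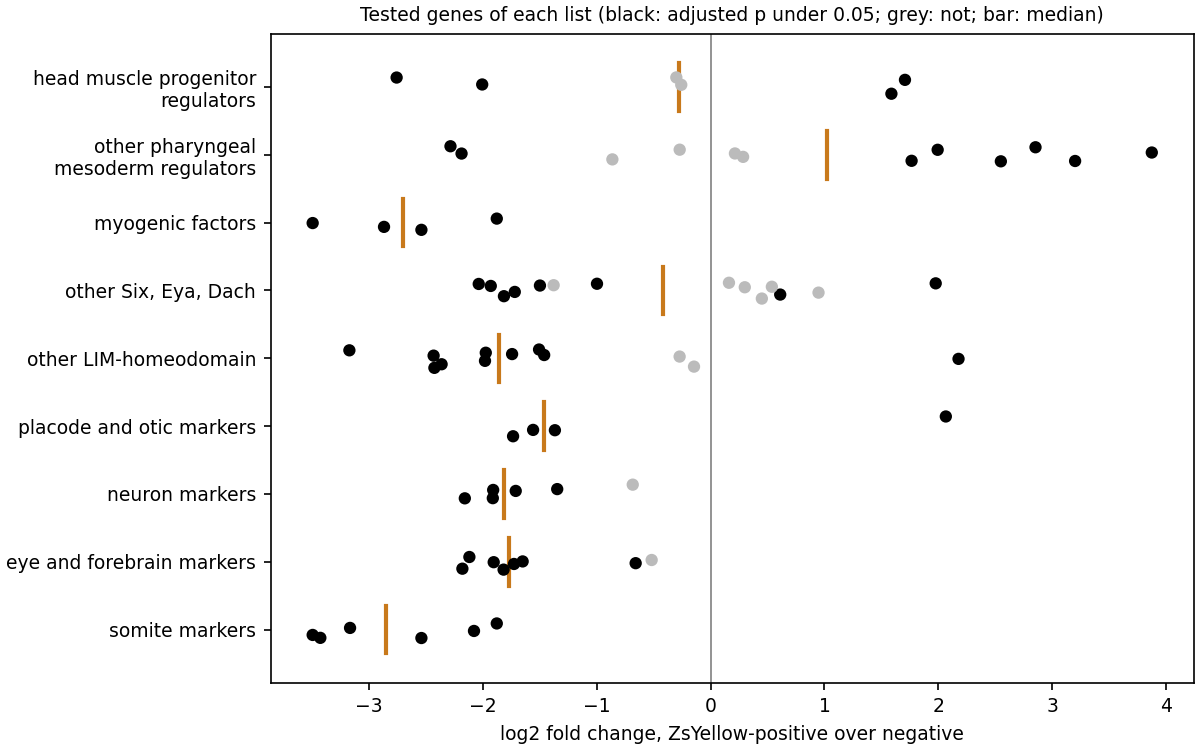
Log2 fold change (positive over negative) of each tested gene, by list, with black points for an adjusted p under 0.05, grey points for the rest and orange bars at medians. The head muscle progenitor regulators spread on both sides of 0, from -2.76 to 1.71, and all 4 myogenic factors lie below 0.

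Markers of other tissues that use the same genes gave this picture. Of 4 placode and otic markers, 3 were called lower and 1, foxi1, higher at 2.07 (edgeR adjusted p 0.000123). Their summed level was 127.6 to 130.7 TPM in positive and 89.9 to 93.6 TPM in negative libraries. Of this, foxi1 alone had 98.9 and 111 TPM in positive libraries, against 24.4 and 26.0 TPM in negative libraries. Among the 3 called lower, pax8 lost its call without negative replicate 2 (-1.56). Neural crest markers had 4 of 5 called lower and 0 higher, with sums of 27.04 to 39.95 TPM in positive and 105.4 to 133.6 TPM in negative libraries. Of 6 pharyngeal endoderm markers, where eya1 also acts, 2 were called higher and 1 lower. Their sums were 47.4 and 32.9 TPM in positive replicates 1 and 2, and 32.8 to 33.5 TPM in negative libraries. In the same order, nkx2.3 had 258 and 94 counts and foxa1, not called, 595 and 216. The nkx2.3 call (2.09) was lost without positive replicate 1 (0.96), negative replicate 1 (1.96) or negative replicate 2 (2.23). Without positive replicate 2 its log2 fold change was 2.73. The foxa2 call (0.85) was lost without negative replicate 1 (0.95) or negative replicate 2 (0.77). The call of foxa3, the lower one (-0.86), was lost without negative replicate 2 (-0.65). None of these markers had a count of 0 in a whole group, and their part in the eya1 level was not tested.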

How the data were processed

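Per the labels, about 50 ng of RNA a sample entered a Clontech low-input kit primed on poly(A) tails, with paired reads of 50 nt. Submitters' processing notes name Salmon 1.2.1, BWA 0.7.12-r1039 and bedtools 2.25.0.64 with builds Zv9 and GRCz11, without roles; whether counting used strand is not given in the sources used here. One table deposited by the authors holds, per the file headers, a whole-number count (treated as an estimated count already rounded, since TPM was above 0 at 20 entries whose count was 0) and log2(TPM + 1), from which TPM was recovered. Names came from a table that names 23599 of 25873 IDs. Paralogs written there under a shared human-style name were matched by it where IDs did not outnumber entries, which gave 121 of 135 list entries.

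Counts were fitted with edgeR 4.0.16 (R 4.3.3, TMM factors, filterByExpr at a minimum count of 10 and total of 15, no block), with each SE taken as the absolute log2 fold change over √F. Alternatives were DESeq2 1.42.0 (size factors or Wald test), upper-quartile factors, other filters, limma 3.58.1 on log2(TPM + 1) or log2(TPM + 0.1), a replicate block, each library left out, and an adjusted p under 0.01. Only the edgeR fit was tested on simulated counts. Genes named beside the 7 are called list members, up to the 3 highest and 3 lowest, markers, nkx2.5 and the 3 nearest profiles of the highest and lowest called gene. Others (LDB1, ENSDARG00000003971, the second MEF2C ID, hand2 among pharyngeal regulators, FOXC1, the second SIX6 ID, six2b, six4a, eya2, eya3, lhx4, lhx9, lmx1a) were chosen after their values were seen. Further genes of the group and of the lists are not reported here. The 7 genes and all lists were chosen with earlier results of these data known. The sources used here name no molecular identifiers, so amplification error is not covered, and reads of near-identical paralogs may be divided arbitrarily.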

Additional observations from a re-analysis of the deposited data

How the results depend on the processing

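The calls of tcf21 (log2 fold changes from 1.41 to 2.08), isl1 (1.49 to 1.69) and lhx2b (-2.11 to -1.57) held under each of 13 alternatives, and eya1 (-0.36 to -0.17) was called under none. With 11 counts or fewer a library, depth limits what can be said of msc.

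At an adjusted p under 0.01, lhx2a (-2.76) was not called, which left 1 of the 7 genes called lower. Over all genes 966 were then called higher and 784 lower, with 1 of the other Six, Eya and Dach genes higher and 0 pharyngeal endoderm markers in either direction. By limma 1 other Six, Eya or Dach gene was called higher, with 0 endoderm markers on log2(TPM + 1) and 1 on log2(TPM + 0.1). On log2(TPM + 1), which shrinks low genes, the medians were -0.17 for other Six, Eya and Dach genes, -1.16 for other LIM-homeodomain genes, 0.22 for endoderm and 1.48 for endothelial markers. Upper-quartile factors, whose centring lowered the median of all genes tested by 0.10, gave 1 other Six, Eya or Dach gene called higher and a median of -0.52. A filter at 1 CPM in 2 libraries dropped lhx2a, leaving 1 of the 7 called lower. LIM cofactors called higher numbered 2 with this filter, no filter, DESeq2 size factors, the DESeq2 Wald test and the replicate block. Whether the centring or the shrinking of low genes caused the changed calls and medians was not tested, nor was any other cause.

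The fit with a replicate block also called 1 other Six, Eya or Dach gene higher, where six2a was lost (0.61), and changed no call of the 7 genes. The labels do not say that equal numbers mark shared embryos, and same-numbered libraries did not deviate together (r = -0.092 over 19084 genes).

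With 1 library left out, the group of 1 is assumed to vary like the other group, so a lost call can reflect the spread of that other group. The ranges were -3.22 to -2.21 for lhx2a and -0.82 to 0.10 for eya4, which turned to 0.10 without positive replicate 2 and 0.02 without negative replicate 1. The 7 genes had 2 called higher and 1 to 2 lower. Over all genes 852 to 2446 were called higher and 747 to 1846 lower. For the 6 tested of the 7 genes, the median was -0.28 with all libraries and -0.50 to -0.092 with 1 left out. Other medians were 0.53 to 1.16 for pharyngeal mesoderm regulators, -0.31 to 0.15 for E proteins, 0.021 to 0.53 for LIM cofactors and -0.80 to -0.37 for bHLH relatives. They were 1.59 to 2.31 for endothelial, -2.01 to -1.41 for neuron and 0.48 to 1.06 for endoderm markers. For myogenic factors they were -3.11 to -2.30, for other LIM-homeodomain genes -1.94 to -1.61 and for other Six, Eya and Dach genes -0.56 to -0.29. Calls were 0 to 3 higher and 0 to 1 lower for endoderm markers, 1 to 3 higher for LIM cofactors and for other Six, Eya and Dach genes, and 2 to 4 lower for pharyngeal mesoderm regulators.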
